A study of Mus musculus with 4 samples.

Results

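The genes described are 6 members of the small heat shock protein family, *Hspb1*, *Hspb2*, *Hspb6*, *Hspb7*, *Hspb8* and *Cryab*, of the 32285 genes counted in single cells of hearts of E10.5 mouse embryos. They were picked by symbol, and because *Hspb1* was higher in *Tie2-cko* than in control endocardial cells (EdCs) of the cushions. The difference in cushion EdCs is therefore given as a description, without a test.

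The data comprised 4 droplet (10x Genomics) libraries, each from whole dissected hearts, with libraries 5 and 7 as control and libraries 6 and 8 as *Tie2-cko*. Control embryos were Tie2 fl/fl without Cre, and *Tie2-cko* embryos were Tie2 fl/fl with an Nfatc1Cre allele, so that both genotypes carried the floxed alleles. *Tie2*, written *Tek* in the files, encodes the receptor of the angiopoietins on endothelial cells. The Cre is driven from the *Nfatc1* locus, which is active in the endocardium and, being a knock-in, also alters 1 copy of *Nfatc1*, and the line had a mixed genetic background. With 2 libraries for each genotype, an exact two-sided permutation test of a single value cannot give a p below 0.333. The methods describe somite-matched embryos of a litter, and nothing says that the libraries of a genotype were prepared on separate days, so that p-values measure the spread between these libraries.

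Small heat shock proteins are chaperones that work without ATP. They share the α-crystallin domain, form oligomers, hold unfolding proteins in solution and pass them on to the HSP70 machinery. Several members are abundant in heart and skeletal muscle, where they bind actin, desmin and titin, and the stress-inducible members are targets of the transcription factor HSF1.

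In the GRCm38 build (mm10 in the labels), with the GENCODE annotation, *Hspb1* lies on chr5:135887919-135889563 on the plus strand, *Hspb8* on chr5:116408491-116422864 on the minus strand, *Hspb7* on chr4:141420779-141425311 on the plus strand and *Hspb6* on chr7:30552178-30555443 on the plus strand. *Hspb2* (chr9:50751078-50752354, minus strand) and *Cryab* (chr9:50751325-50756636, plus strand) are annotated in divergent orientation with overlapping starts, and share 1030 bases on opposite strands. *Hspb6* overlaps *Proser3* and *Lin37* on the other strand. Whether the counting used the strand is not given in the sources used here, so reads of the shared bases cannot be assigned with certainty. RefSeq promoter windows of 300 bases (GRCm38.p6, 250 before to 50 after an annotated start) were matched for 4 of the 6 members. The windows of *Hspb1*, *Hspb7* and *Hspb8* are shown because their levels outside cardiomyocytes (CMs) are described below, while *Hspb6* was near the limit of detection. Capitals mark GAANNTTC, a pair of head-to-head units of the heat shock element, which reads the same on both strands.

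*Hspb1*, chr5:135887669-135887968, plus strand: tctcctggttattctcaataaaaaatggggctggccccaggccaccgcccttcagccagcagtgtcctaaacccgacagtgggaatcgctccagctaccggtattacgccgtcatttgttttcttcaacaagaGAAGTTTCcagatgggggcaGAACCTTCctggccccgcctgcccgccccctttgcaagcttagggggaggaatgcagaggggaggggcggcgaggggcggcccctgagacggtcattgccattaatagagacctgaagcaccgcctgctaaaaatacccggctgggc
*Hspb8*, chr5:116422815-116423114, minus strand: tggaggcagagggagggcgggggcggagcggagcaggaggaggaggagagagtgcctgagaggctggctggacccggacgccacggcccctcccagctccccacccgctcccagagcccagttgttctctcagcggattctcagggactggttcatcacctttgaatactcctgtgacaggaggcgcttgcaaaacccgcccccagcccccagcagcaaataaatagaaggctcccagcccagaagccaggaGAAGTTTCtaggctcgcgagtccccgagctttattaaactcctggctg
*Hspb7*, chr4:141420529-141420828, plus strand: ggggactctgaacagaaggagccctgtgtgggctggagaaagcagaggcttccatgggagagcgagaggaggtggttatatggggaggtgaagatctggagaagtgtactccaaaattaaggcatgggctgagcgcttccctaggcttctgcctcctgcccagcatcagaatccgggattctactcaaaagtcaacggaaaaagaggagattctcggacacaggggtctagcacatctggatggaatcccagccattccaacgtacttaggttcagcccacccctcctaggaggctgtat

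The *Hspb1* window held 2 such pairs, at -117 to -110 and at -97 to -90 from the start. *Hspb8* held 1, at 3 to 10 within the transcript, and *Hspb7* held none. Of the 2 windows of *Hspb6*, 1 had a pair at -120 to -113 and the sequence TATAAA at -29 to -24. Over all 32851 windows, 7.86% held GAANNTTC, 8.52% held TTCNNGAA, its tail-to-tail counterpart, 13.6% held TATAAA on either strand, 1.63% a CArG box and 3.19% a MEF2 site. No TTCNNGAA, CArG box or MEF2 site was found in the windows of the 4 members, which says only that these letters are not there. A match is a description of the sequence and not a site of binding.

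The libraries held 8877 to 18488 barcodes, of which 5684 to 10097 were kept, with medians of 14878 to 25875 UMIs (unique molecular identifiers, each counting 1 captured transcript). Any 2 libraries shared 29 to 62 barcodes, and 12 to 29 among those kept. Libraries 5 and 6 contained hepatic cells, epithelial cells led by *Nepn* and *Klf5* or by *Wnt7b* and *Irx1*, and other non-cardiac cells that were rare in libraries 7 and 8. Epithelial cells led by *Pax9* and *Sfn* (250, 30, 243 and 319 cells in libraries 5, 6, 7 and 8) and by *Foxe1* and *Hhex* (25, 28, 5 and 57) did not follow this split. Libraries 7 and 8 carried more CM transcripts in every non-myocardial cell type named below. Cell types are clusters named from marker genes, and are marker-defined populations ("-like") wherever a name is used. Cushion EdCs (280, 131, 483 and 496 cells in libraries 5, 6, 7 and 8) had 7 of 7 EdC markers, 5 of 7 cushion, 3 of 4 chamber, 0 of 8 CM and 2 of 5 trabecular CM markers. Chamber EdCs (375, 133, 587 and 450 cells) had 7 of 7 EdC, 1 of 7 cushion, 4 of 4 chamber, 0 of 8 CM and 0 of 5 trabecular CM markers. *Postn*, which is on the cushion list, remained at 0.167 to 0.254 UMIs per 10000 in cushion EdCs, against 4.71 to 5.13 in the mesenchymal cell (MC) cluster led by *Postn* and *Meox1*. *Tek* was lower in the mutants, at 0.894 and 1.02 UMIs per 10000 in control chamber EdCs and at 0.130 and 0.148 in *Tie2-cko* chamber EdCs. In cushion EdCs it was at 0.866 and 1.60 in control and at 0.357 and 0.286 in *Tie2-cko* libraries. The fitted log2 difference was -2.58 ± 0.20 (SE, adjusted p = 0.0181) in chamber EdCs and -1.98 ± 0.27 (adjusted p = 0.117) in cushion EdCs by edgeR's quasi-likelihood test on UMIs summed per library.

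Levels below are means over the cells of a library of UMIs per 10000 UMIs of the cell, and compare 1 gene between cell types. *Hspb1*, *Hspb2*, *Hspb7* and *Cryab* were highest in the 6 CM clusters, none of whose libraries overlapped with any library of another named cell type. Across 18 cell types measured in all 4 libraries, the levels of these genes rose and fell together (Pearson r of log2 levels 0.94 between *Hspb1* and *Hspb2*, 0.99 between *Hspb2* and *Hspb7*, and 0.97 between *Hspb2* and *Cryab*). The points of these correlations share their libraries and the contrast of CMs with all other cells, and no test was made.

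HSPB1 (HSP27) is the widely expressed, stress-inducible member, which caps actin filaments and is phosphorylated downstream of p38. In CMs as a whole, *Hspb1* was at 23.4, 21.6, 19.4 and 18.5 UMIs per 10000 in libraries 5, 6, 7 and 8. The libraries of both genotypes overlapped. Among the CM clusters, the mean was 26.1 in outflow tract CMs, 23.4 in atrial CMs, 20.3 in ventricular CMs led by *Hopx*, 19.4 in sinus venosus and atrioventricular canal CMs, 18.2 in trabecular CMs and 16.9 in ventricular CMs led by *Ttn*. Each cluster overlapped with the next in this order over the 4 libraries, and the lowest library of outflow tract CMs (23.2) was above the highest library of the *Ttn*-led ventricular CMs (19.6).

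CRYAB (αB-crystallin) protects desmin and other filaments in muscle. Its order differed from that of *Hspb1*, with trabecular CMs highest at 11.6 UMIs per 10000 (up to 13.2 in a library) and outflow tract CMs next at 10.4 (9.56 to 11.2). Atrial CMs (9.09), sinus venosus and atrioventricular canal CMs (8.44) and *Hopx*-led ventricular CMs (7.36) followed, each overlapping with the next. The *Ttn*-led ventricular CMs were lowest at 5.77 (5.24 to 6.75), below every cluster but the *Hopx*-led one. In all CMs together *Cryab* was at 7.34, 7.53, 9.14 and 8.08 in libraries 5 to 8.

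HSPB2 and HSPB7 are restricted to muscle, and HSPB7 binds filamin C and is needed for sarcomere assembly. *Hspb2*, the neighbour of *Cryab*, ranged from 2.91 UMIs per 10000 in *Ttn*-led ventricular CMs to 4.63 in atrial CMs. The *Ttn*-led cluster did not overlap with any other CM cluster. *Hspb7* was highest in *Hopx*-led ventricular CMs at 3.01 (2.64 to 3.64) and lowest in sinus venosus and atrioventricular canal CMs at 2.01 (1.94 to 2.10). *Hspb7* in library 6 exceeded the other libraries in CMs as a whole, at 3.17 against 2.73, 2.42 and 2.41 in libraries 5, 7 and 8.

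HSPB8 (HSP22) acts with BAG3 in selective autophagy of misfolded proteins, and HSPB6 (HSP20) binds 14-3-3 proteins in smooth and cardiac muscle. *Hspb8* was at 0.429, 0.504, 0.468 and 0.436 UMIs per 10000 in CMs of libraries 5 to 8. It was lowest among CMs in the trabecular cluster, at 0.238 (0.220 to 0.266), below all libraries of the other CM clusters. *Hspb6* was near the limit of detection, with 216, 172, 187 and 214 UMIs over all CMs and a level of 0.0187 to 0.0212, and was highest in outflow tract CMs at 0.0357 (0.0271 to 0.0476).

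**Figure D1:**
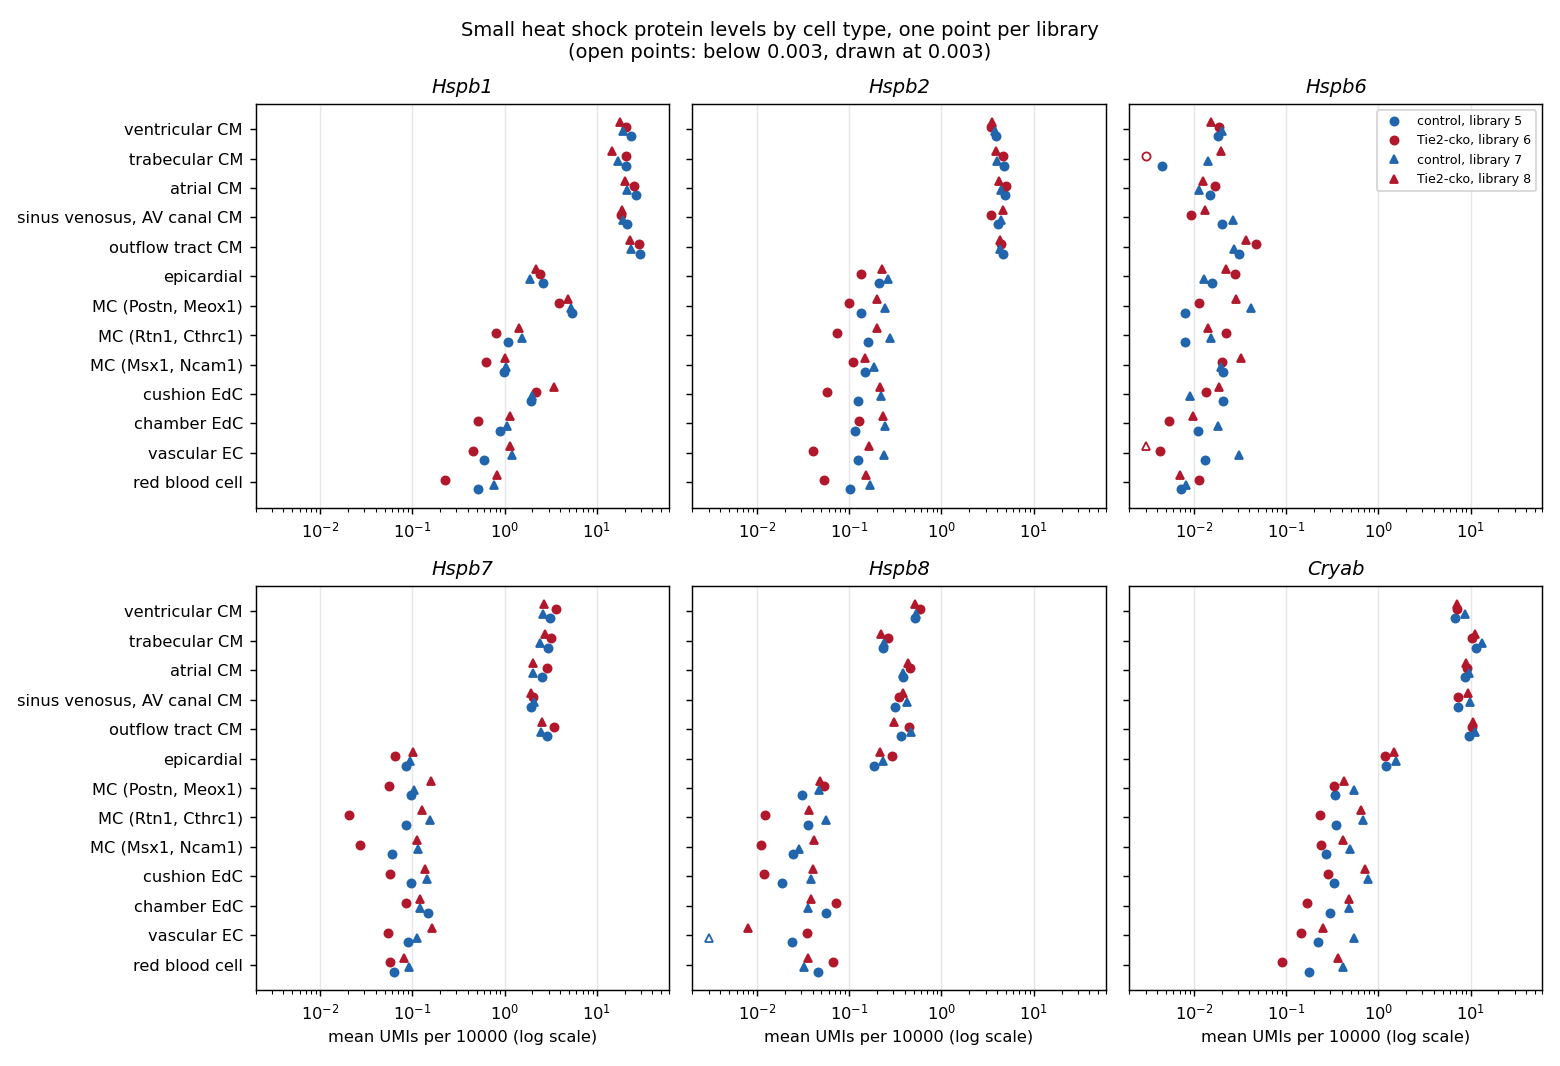
Level of each gene (mean UMIs per 10000, log scale) in 13 of the cell types, with 1 point per library, blue for control, red for *Tie2-cko*, circles for libraries 5 and 6 and triangles for libraries 7 and 8; the ventricular CMs are the *Hopx*-led cluster. *Hspb1*, *Hspb2*, *Hspb7* and *Cryab* lie highest in the CM rows, *Hspb8* reaches 0.231 in epicardial cells, and *Hspb6* stays below 0.05 in all rows.

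Outside CMs, *Hspb1* was highest in the MC cluster led by *Postn* and *Meox1*, at 5.41, 3.87, 5.27 and 4.82 UMIs per 10000 in libraries 5, 6, 7 and 8. This cluster lay below all CM clusters and above all other clusters in this order without overlap. The 3 unnamed clusters with few UMIs were left out of the order here and below. Of these, 2 overlapped with the *Postn* and *Meox1* cluster (3.61 to 5.63 and 2.95 to 5.53) and the cluster led by *Mhrt* and *Myl2*, which had 8 of 8 CM markers, lay above it (12.1 to 18.3). A group of 4 populations followed that overlapped with each other, namely an unnamed cluster led by *Rgs5* and *Prrx1* (mean 2.43), cushion EdCs (2.39), epithelial cells led by *Pax9* and *Sfn* (2.32) and epicardial cells (2.27). The unnamed cluster had 4 of 8 MC and 4 of 6 skeletal myogenic markers. The other MC clusters had 1.23 (*Rtn1* and *Cthrc1*) and 0.910 (*Msx1* and *Ncam1*). Chamber EdCs, with 0.889, 0.521, 1.05 and 1.14, lay below cushion EdCs in every library, and vascular endothelial cells (0.845), macrophages with megakaryocytes (0.727) and red blood cells (0.584) were lowest.

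**Figure D2:**
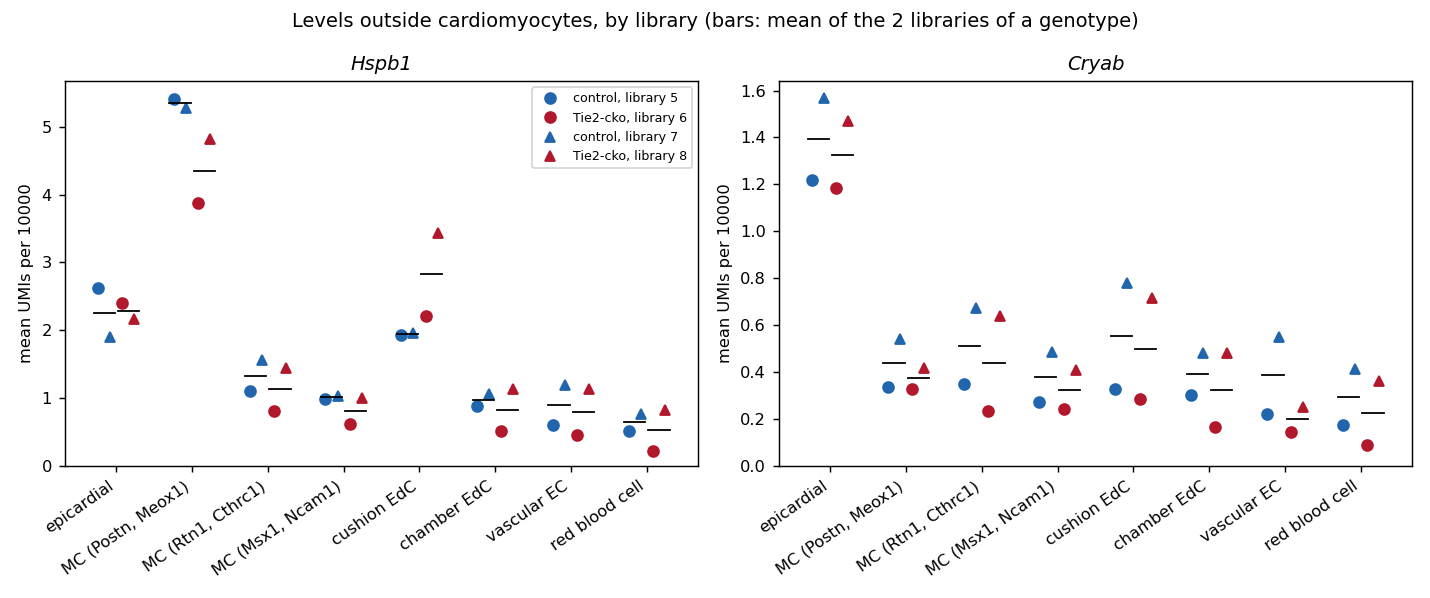
*Hspb1* (left) and *Cryab* (right) in mean UMIs per 10000 on linear axes from 0 in 8 cell types outside CMs, with 1 point per library and a bar for the mean of the 2 libraries of a genotype. *Hspb1* stands highest in the MC cluster of *Postn* and *Meox1* and *Cryab* in epicardial cells, and the libraries of both genotypes do not overlap for *Hspb1* in cushion EdCs and in that MC cluster.

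Free RNA from lysed cells gives UMIs in cells that do not express a gene, and CM transcripts were found in every cell type. The median of 11 CM genes that are abundant and specific to muscle (among them *Tnnt2*, *Myh7* and *Ttn*) was therefore set beside the members, each as percent of its level in CMs of the same library. Percentages given for the CM genes are this median, and single CM genes can lie above it. In red blood cells this median was 1.38 to 3.80% over the libraries, and *Hspb1* (1.04 to 4.47%), *Hspb2* (1.43 to 4.25%), *Hspb7* (1.81 to 3.82%) and *Cryab* (up to 4.54%) lay at about the same height. In chamber EdCs, *Hspb1* (2.41 to 6.14%), *Hspb2* (2.85 to 6.22%), *Hspb7* (2.70 to 5.46%) and *Cryab* (2.21 to 5.96%) likewise spanned the range of the CM genes (2.40 to 5.75%). *Hspb1* in chamber EdCs thus stood in the same proportion to its CM level as the CM genes did, and any expression below that height was not detectable. *Hspb8*, on few UMIs, was at 6.94 to 13.1% in red blood cells and at 7.66 to 14.3% in chamber EdCs.

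Above this background, *Hspb1* was at 17.9 to 27.1% of the CM level in the MC cluster of *Postn* and *Meox1*, where the CM genes were at 2.03 to 4.69%. Cushion EdCs had *Hspb1* at 8.23, 10.3, 10.1 and 18.6% in libraries 5, 6, 7 and 8, while the CM genes were at 3.23, 1.57, 5.77 and 5.09%. *Hspb2* (1.55 to 5.64%) and *Hspb7* (1.82 to 6.04%) stayed at the height of the CM genes in cushion EdCs, and *Cryab* was above it in each library (4.48, 3.80, 8.51 and 8.84%).

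Among cell types measured in all 4 libraries, epicardial cells, the outer covering of the heart, had the highest mean *Hspb8* and *Cryab* outside CMs. *Hspb8* was at 0.184, 0.290, 0.234 and 0.217 UMIs per 10000 in libraries 5 to 8, or 42.9 to 57.7% of the level in CMs, and overlapped with trabecular CMs. *Cryab* was at 1.22, 1.18, 1.57 and 1.47, or 15.7 to 18.2%, and overlapped with epithelial cells led by *Pax9* and *Sfn* (0.597 to 1.48). *Hspb1* was at 9.78 to 11.7% in epicardial cells, against 1.53 to 4.16% for the median of the CM genes. *Hspb7* (2.03 to 4.24%) was at about the height of this median and *Hspb2* (3.60 to 6.73%) exceeded it slightly, which does not place *Hspb2* above every CM gene. The CM genes summed to 41.9 to 56.9 UMIs per 10000 in epicardial cells and to 687 to 727 in CMs. *Hspb7* outside CMs was highest in the unnamed cluster of *Rgs5* and *Prrx1*, at 6.60, 14.9, 13.6 and 17.5% of the CM level in libraries 5 to 8, where the CM genes were at 3.79, 4.96, 8.06 and 7.56%.

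**Figure D3:**
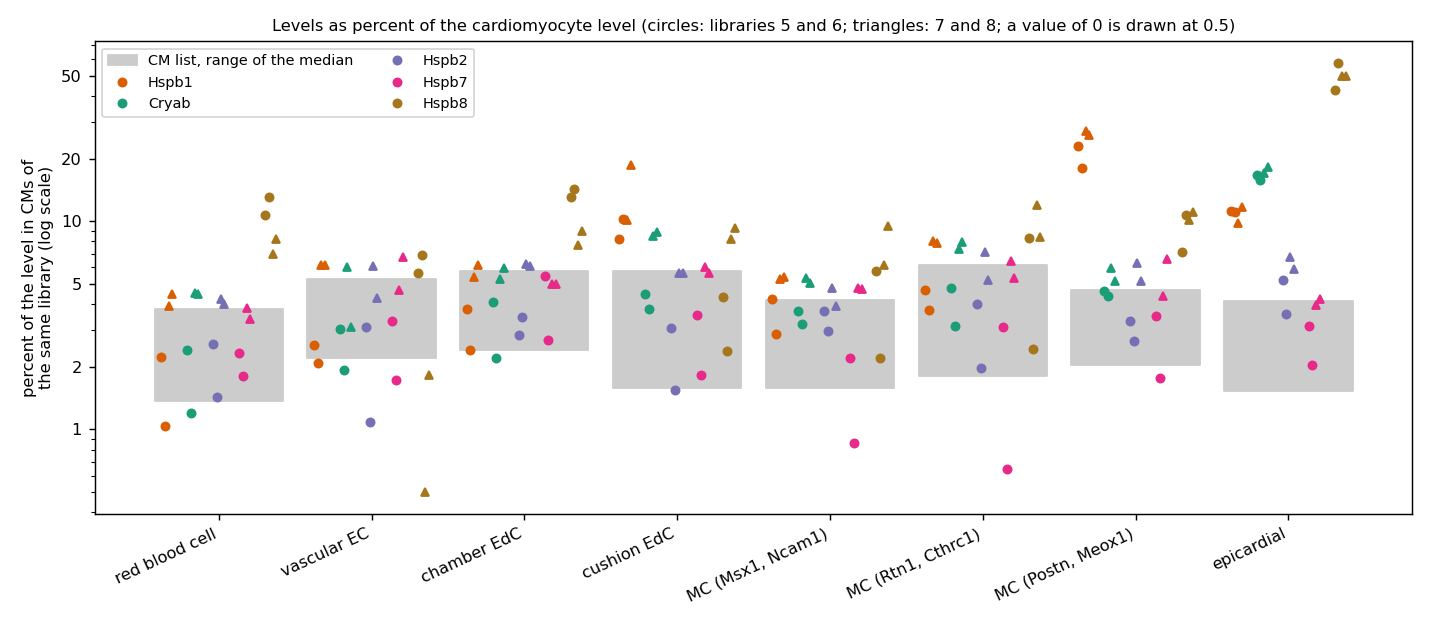
Level of 5 of the genes in 8 cell types as percent of the level in CMs of the same library (log scale), with 1 point per library, beside the grey range over libraries of the median of 11 CM genes. *Hspb1* leaves the grey range in cushion EdCs, in the MC cluster of *Postn* and *Meox1* and in epicardial cells, where *Hspb8* reaches 42.9 to 57.7%.

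Counted by cells at an equal depth of 5500 UMIs, *Hspb1* was found in 47.8, 34.9, 48.3 and 48.8% of cushion EdCs, in 29.0, 20.2, 37.2 and 39.6% of chamber EdCs and in 62.1 to 68.1% of epicardial cells. Red blood cells, where *Hspb1* lay at about the height of the CM genes, had 24.2, 11.4, 28.4 and 25.1% (all in the order of libraries 5 to 8). Chamber EdCs were thus above red blood cells in each library, at median depths of 11036 to 28170 UMIs against 22799 to 60281. Without thinning the means over libraries were 63.7% in chamber EdCs, 72.6% in cushion EdCs, 94.4% in epicardial cells and 69.7% in red blood cells, so that the order of chamber EdCs and red blood cells was not the same. Between the genotypes the shares in cushion EdCs overlapped.

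By similarity of their levels over the 18 cell types (log2 of the mean level plus 0.1, 4639 genes), the genes nearest to *Hspb1* were *Acta2* (r = 0.97), which encodes smooth muscle actin, *Pakap* (0.96) and *Hcfc1r1* (0.96). Nearest to *Hspb2* were *Myl4*, *Asb2* and *Tnnc1* (each 1.00), and nearest to *Hspb7* were *Ttn*, *Nebl* and *Smyd1* (each 0.99). Of these, *Myl4*, *Tnnc1*, *Ttn* and *Nebl* encode sarcomere proteins. *Cryab* was nearest to *Ppp1r1a*, *Bmp7* and *Myl7* (each 0.98), and *Hspb8* to *Plekha7* (0.94), *Bmp7* (0.94) and *Myl7* (0.93). For *Hspb6* no gene exceeded 0.78 (*Psd*), at counts near the limit of detection.

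The comparison for which these genes were chosen asks how cushion EdCs differ after deletion of *Tie2*. *Hspb1* was at 1.93 and 1.96 UMIs per 10000 in cushion EdCs of control libraries 5 and 7. The mutant values were 2.21 in library 6 and 3.44 in library 8. The mutant libraries lay above the control libraries, library 6 by little and library 8 by most of the difference. The means were 1.95 ± 0.023 and 2.82 ± 0.86 (SD, n = 2), a ratio of 1.45 or a log2 ratio of 0.54. Without library 8 the log2 ratio was 0.19, and without library 6 it was 0.82. When the UMIs of all cells were summed, which gives more weight to cells with many UMIs, *Hspb1* had a CPM of 186 and 190 without Cre and of 318 and 322 with it, while the fitted log2 difference was 0.76 (0.74 to 0.78 leaving out each library in turn). No test is given for it. Both *Tie2-cko* libraries were above both control libraries for 17.7% of the 11486 genes tested in cushion EdCs, and the genotypes did not overlap in either direction for 27.6%, from which nothing can be read about genes that were chosen for this contrast.

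The other members showed no such separation in cushion EdCs. *Cryab* was at 0.329 and 0.778 UMIs per 10000 in control and at 0.286 and 0.714 in *Tie2-cko* libraries, a fitted log2 difference of 0.02. Here libraries 7 and 8 were high and libraries 5 and 6 low irrespective of genotype. The fitted differences of *Hspb2* (-0.17), *Hspb7* (-0.17) and *Hspb8* (-0.33) were negative, the latter on 5 to 25 UMIs per library, and became -1.11, -0.59 and -1.50 without library 8. *Hspb6*, with 5 to 10 UMIs per library, did not pass the filter on low counts, so that 5 of the 6 members were fitted.

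Other values of the same cushion EdCs are as follows, whether or not they moved with *Hspb1*. The summed level of the 11 CM genes was 27.3 and 39.2 UMIs per 10000 in control and 14.6 and 34.7 in *Tie2-cko* libraries, and 0 of the 11 had a higher mean in *Tie2-cko*. All 11 were detected, none being at 0. The 6 red blood cell genes summed to 70.7 and 38.3 in control and to 13.5 and 12.3 in *Tie2-cko* libraries, with 0 of 6 higher in *Tie2-cko*. The 10 immediate early genes that respond to dissociation summed to 7.99 and 8.10 in control and to 9.36 and 9.35 in *Tie2-cko* libraries, with 8 of 10 higher. The part of the early genes and of the red blood cell transcripts in the result was not tested. Without the 25% of cushion EdCs with most CM transcripts, the fitted *Hspb1* difference was 0.88.

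*Hspb1* was unevenly spread over the cushion EdCs. At 5500 UMIs per cell, 48.7 to 62.8% of them had no *Hspb1* UMI, whereas the tenth of cells with most held 53.4 to 70.9% of all *Hspb1* UMIs. Cells with at least 5 were 13 of 276 (4.71%, 95% Wilson interval 2.77 to 7.89) in library 5 and 11 of 462 (2.38%, 1.33 to 4.21) in library 7, the controls. In *Tie2-cko* they were 8 of 129 (6.20%, 3.18 to 11.8) in library 6 and 40 of 477 (8.39%, 6.22 to 11.2) in library 8. The shares of the mutant libraries were higher. The intervals cover counting error within a library only, as cells are not replicates of a genotype. They are not compared between genotypes, since *Hspb1* was chosen for this contrast. This threshold was chosen after seeing the data and cuts a range rather than a type, as a further 5.80, 8.53, 8.66 and 7.13% of the cells in libraries 5, 6, 7 and 8 had 3 or 4 UMIs.

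Leaving out the cells with at least 5 *Hspb1* UMIs, the mean per cell was 0.722 and 0.8004 UMIs of 5500 in control libraries 5 and 7. It was 0.554 and 0.771 in *Tie2-cko* libraries 6 and 8, a log2 ratio of the means of -0.20. The genotypes overlapped among these remaining cells. Since the cells left out were chosen by *Hspb1* itself, nothing is drawn from this value. Chamber EdCs held no such cell among 352, 124, 546 and 419, which allows shares of up to 0.852, 2.42, 0.549 and 0.716%. In the MC cluster of *Postn* and *Meox1* such cells made up 20.5, 16.7, 23.4 and 17.9%, and in epicardial cells 6.07, 4.76, 0.930 and 3.29%.

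The cushion EdCs with at least 5 *Hspb1* UMIs were compared with the other cushion EdCs. In all 4 libraries, *Cryab*, *Nfatc1*, *Twist1* and the genes ranked in the next paragraph differed in the same direction. *Cdh5*, *Hspb7*, *Tek* and the CM genes did not keep the same direction in all 4. The cells with at least 5 *Hspb1* UMIs come first in each comparison below. Their *Hspb1* was at 14.8, 22.5, 22.4 and 24.4 UMIs per 10000 in libraries 5, 6, 7 and 8 against 1.30, 0.910, 1.45 and 1.44 in the remaining cells. Of *Cryab*, *Hspb2* and *Hspb7*, which were looked at in these cells, *Cryab* was higher in all 4 libraries, at 1.16 to 3.74 against 0.233 to 0.706. The 11 CM genes differed little in libraries 5, 6 and 7 and were higher in library 8, with sums of 28.4, 14.2, 36.5 and 41.3 against 26.9, 14.3, 38.1 and 32.9, and *Hspb7* was at 0 to 0.183 against 0.0335 to 0.126. *Cdh5*, the endothelial cadherin, was at 1.52 to 2.28 against 1.68 to 2.06, *Nfatc1*, a transcription factor of valve endocardium, was higher at 1.71 to 2.22 against 1.22 to 1.59, and *Twist1*, a transcription factor of cushion mesenchyme, was lower at 0.684 to 0.961 against 1.60 to 1.96. *Tek* was at 1.32 and 3.05 against 0.856 and 1.58 in the controls, and at 0.0854 and 0.00993 against 0.381 and 0.317 in *Tie2-cko* libraries 6 and 8.

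Ratios of levels in these cells over the other cushion EdCs were taken with 0.1 added to both levels. This makes the ratios of genes at low levels less extreme than those of the plain levels. Only genes above a minimum level in these cells of every library were ranked for a higher level. Genes could thus enter the ranking through the cells where they were high. Among the ranked genes other than *Hspb1*, *Nrg1* had the largest lowest ratio over the libraries, 4.81. It encodes the endocardial ligand of the ERBB receptors of CMs. The lowest ratio was 4.79 for *Serpinb1a*, 4.47 for the water channel *Aqp1*, 3.33 for *Cryab*, 3.21 for *Ccdc141* and 3.14 for *Uap1*. *Lmo2* (3.02), *Plk2* (2.77), *Cd9* (2.74), *Arf2* (2.60), the fatty acid binding protein gene *Fabp5* (2.57) and *Tinagl1* (2.56) followed. Then came *Gja1* (2.43), which encodes connexin 43, and *Klf2* (2.33), a transcription factor induced by flow. Among genes above a minimum level in the other cushion EdCs of every library, *Plagl1*, *Csrp2* and *Id2* were lower, with ratios of at most 0.344, 0.401 and 0.424. Over all cushion EdCs, 4 of these genes, chosen after their values were seen, did not pass the test between genotypes, with fitted log2 differences of 0.01 ± 0.13 for *Klf2*, 0.19 ± 0.13 for *Nrg1*, -0.67 ± 0.18 for *Aqp1* and -0.12 ± 0.33 for *Serpinb1a* (SE, edgeR, each adjusted p = 1.00). As *Hspb1* selected the cells, these values describe them and are not tested.

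**Figure D4:**
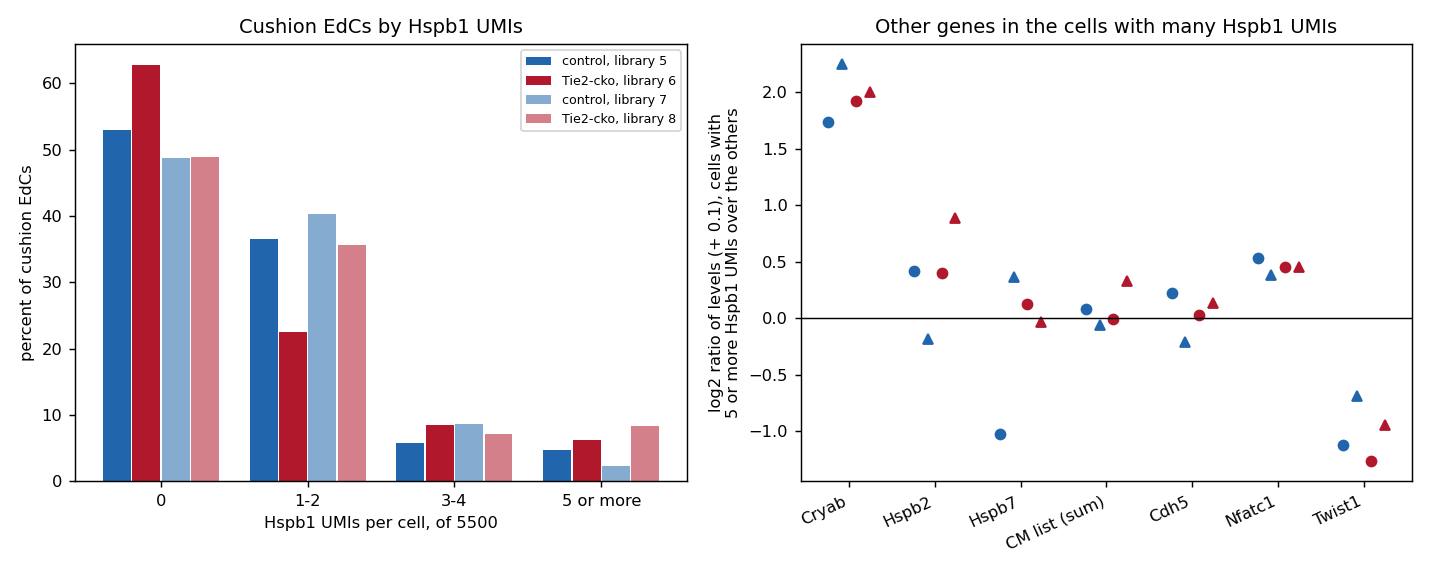
Left, percent of cushion EdCs with 0, 1 to 2, 3 to 4 and at least 5 *Hspb1* UMIs of 5500, with 1 bar per library. Right, log2 ratio of levels (plus 0.1 UMIs per 10000) in cells with at least 5 *Hspb1* UMIs over the other cushion EdCs, with 1 point per library; *Cryab* and *Nfatc1* lie above 0 and *Twist1* below 0 in all 4, and the summed CM genes lie near 0.

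In the other cell types the genotype comparison was tested. In chamber EdCs, 1 of 11499 genes, *Tek*, passed the threshold (0.0087%, with 854 genes at an unadjusted p under 0.05), and none of the 5 members tested did. *Hspb1* was at 0.889 and 1.05 UMIs per 10000 in control and at 0.521 and 1.14 in *Tie2-cko* libraries, which overlapped. The fitted log2 difference was 0.28 ± 0.15 (adjusted p = 0.743), with the opposite sign to the ratio of the mean levels (-0.23). In library 6, 10 of the 133 chamber EdCs, each with more than 4 times the median UMIs, held 351 of the 496 *Hspb1* UMIs, and without such cells the fitted difference was -0.16. *Cryab* (0.18 ± 0.28, adjusted p = 0.930), *Hspb2* (-0.01), *Hspb7* (-0.07) and *Hspb8* (0.07) differed by less than their standard errors. Of the 5 members tested none had genotypes without overlap, which 34.1% of all genes tested had.

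In CMs, 0 of 15579 genes passed the threshold (0%, 63 at an unadjusted p under 0.05, 2 by DESeq2). The fitted log2 differences of the members were -0.10 ± 0.17 for *Hspb1*, -0.07 ± 0.11 for *Hspb2*, -0.13 ± 0.18 for *Hspb6*, 0.05 ± 0.17 for *Hspb7*, 0.03 ± 0.12 for *Hspb8* and -0.10 ± 0.12 for *Cryab* (each adjusted p = 1.00). *Hspb2* was the only member whose genotypes did not overlap, at 4.01 and 3.91 UMIs per 10000 in control and 3.71 and 3.82 in *Tie2-cko* libraries, as did 20.1% of all genes tested.

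In MCs, 0 of 12582 genes passed the threshold (0%, 137 at an unadjusted p under 0.05, 9 by DESeq2). *Hspb1* was at 1.84 and 1.91 UMIs per 10000 in control and at 1.58 and 2.12 in *Tie2-cko* libraries, with a fitted difference of -0.05 ± 0.20. Within the MC cluster of *Postn* and *Meox1*, both control libraries (5.41 and 5.27) were above both *Tie2-cko* libraries (3.87 and 4.82), a log2 ratio of -0.30 that was not tested. The largest fitted difference was that of *Hspb2*, at -0.64 ± 0.38 (adjusted p = 1.00), with 0.152 and 0.247 in control and 0.092 and 0.186 in *Tie2-cko* libraries. With libraries 5 and 6 set as a block against libraries 7 and 8, it was -0.66 (adjusted p = 0.000187), and the summed CM genes, of which 0 of 11 had a higher mean in *Tie2-cko* MCs, were lower too, at 30.3 and 42.1 in control and 18.4 and 37.4 in *Tie2-cko* libraries. The part of CM transcripts in this difference was not tested. In MCs as a whole 0 of the 6 members had genotypes without overlap, against 24.7% of the genes tested.

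In epicardial cells, 4 of 11955 genes passed the threshold (0.0335%), the globin genes *Hbb-bt*, *Hbb-bh1*, *Hbb-y* and *Hba-x*, each lower in *Tie2-cko*, and none of the members did. *Hspb1* differed by -0.03 ± 0.18, *Cryab* by -0.08 ± 0.18 and *Hspb8* by 0.11 ± 0.17 (each adjusted p = 1.00). *Hspb6* had the largest value, 0.60 ± 0.41 (adjusted p = 1.00), on 14, 21, 12 and 27 UMIs in libraries 5, 6, 7 and 8, and was the only member of the 6 whose genotypes did not overlap, against 25% of the genes tested. In cushion EdCs, 0 of 11486 genes passed the threshold (0%, 239 at an unadjusted p under 0.05, 9 by DESeq2).

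**Figure D5:**
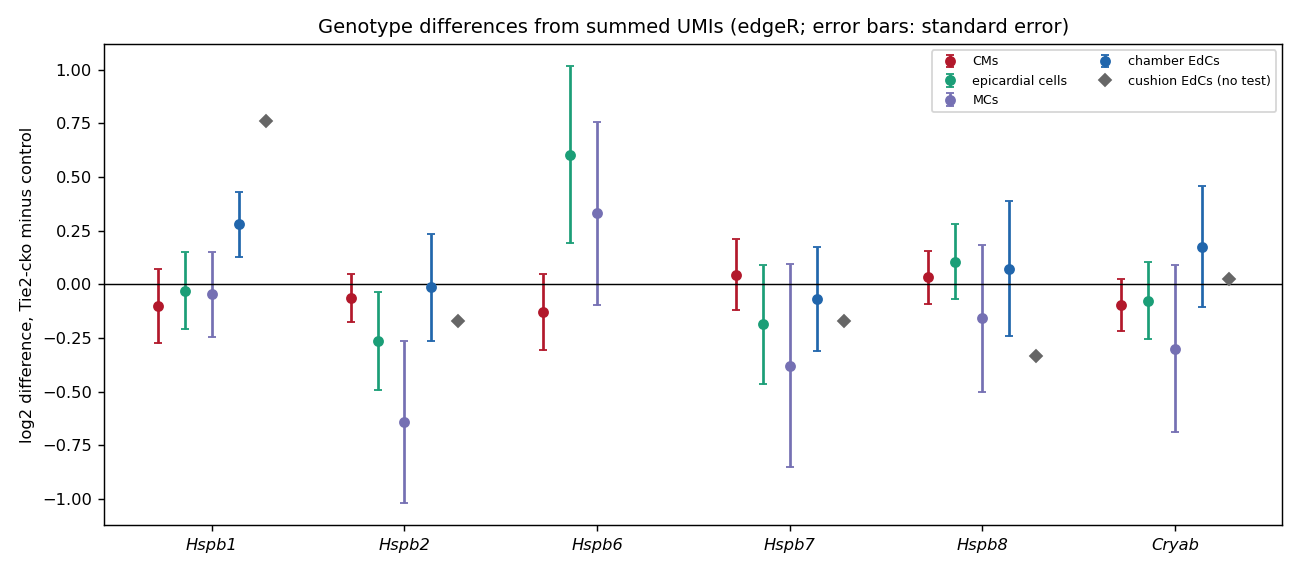
Log2 difference of *Tie2-cko* minus control from UMIs summed per library, for each gene and 5 cell types, with the standard error as bars (edgeR); cushion EdCs are diamonds without bars, as no test was made there, and *Hspb6* was not fitted in EdCs. The values of tested cell types lie within -0.64 and 0.60, and *Hspb1* in cushion EdCs lies at 0.76.

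Whether the genotype difference of a member varied between cell types was tested with CMs as reference and the library as a block, leaving out cushion EdCs. Between chamber EdCs and CMs, 129 of 15375 genes passed (0.839%). *Hspb1* had the largest value among the members, 0.37 ± 0.15 (adjusted p = 0.341), and *Cryab* had 0.27 ± 0.16 (adjusted p = 0.548). For *Hspb1* the difference passed the threshold without the filter on low counts (0.37, adjusted p = 0.00805). Fits without a library leave 1 library in a genotype, with no spread of its own, so only their values are given. The difference of *Hspb1* was 0.56 without library 6 and 0.73 without library 7, and that of *Cryab* was 0.48 and 0.61. Without library 5 the values were 0.04 for *Hspb1* and 0.02 for *Cryab*, and without library 8 they were 0.18 and -0.02. Both genes stood at the height of the CM genes in chamber EdCs, and the fit without library 7 includes library 6, where the 10 cells given above held 351 of 496 *Hspb1* UMIs. Between MCs and CMs, 1 of 15681 genes passed (0.00638%), and between epicardial cells and CMs, 1 of 15724 (0.00636%), in both cases *Mt1*, a metallothionein gene. For MCs, *Hspb2* had -0.57 ± 0.29 (adjusted p = 1.00), which became -0.89 without library 5 and -1.49 without library 8. Without library 8, which leaves library 6 as the mutant, *Hspb7* had -1.81 and *Cryab* -0.90 for MCs. In library 6, *Hspb2*, *Hspb7* and *Cryab* in MCs were at 2.48, 1.02 and 3.49% of their CM levels and the CM genes at 1.84%, each the lowest of the 4 libraries. The part of CM transcripts in these differences was not tested.

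Of the other small heat shock proteins, *Hspb3*, a further muscle member, followed *Hspb2* and *Hspb7*, with 1.19 to 1.40 UMIs per 10000 in CMs and at most 0.108 in cushion EdCs. *Hspb11*, a component of cilia in spite of its name, was at 0.611 to 0.742 in CMs and 0.348 to 0.472 in cushion EdCs, and its fitted difference in cushion EdCs was 0.01 ± 0.19 (adjusted p = 1.00). *Hspb9* and *Odf1*, known from testis, and *Cryaa*, known from the lens, had at most 7 UMIs in the CMs of a library, and *Cryaa* had 0 in each.

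The remaining chaperone system was compared by lists. Of 18 chaperones inducible by HSF1, 17 were tested in cushion EdCs, 0 passed the threshold in either direction, and their median log2 difference was -0.09, against 0.00 for all genes. The most abundant of them, *Hsp90ab1*, was at 51.9 and 49.1 UMIs per 10000 in control and 53.5 and 47.7 in *Tie2-cko* libraries, and *Hspa8*, the constitutive HSP70, was at 18.9 and 17.4 and at 20.9 and 12.2. *Hsp90aa1* (-0.07) and *Dnaja1* (-0.04) differed by less than their standard errors. The next 2 genes were chosen after their values were seen. *Hspa1a*, the inducible HSP70, differed by -0.83 ± 0.46 (adjusted p = 1.00). *Bag3*, which binds HSPB8 and HSP70, differed by -0.33 ± 0.21 (adjusted p = 1.00). The 10 chaperones of the endoplasmic reticulum, such as *Hspa5* and *Hsp90b1*, had a median of -0.19 with none passing, and the 12 partners and filament clients, such as *Vim*, *Stub1* and *Flna*, had -0.07 with none passing. The 10 immediate early genes had a median of 0.21 (-0.34 to 0.64, none passing), with *Jun* at 0.19 ± 0.13 and *Atf3* at 0.24 ± 0.15, and the 5 tested heat shock and stress factors, among them *Hsf1* (-0.16 ± 0.19) and *Nfe2l2* (0.32 ± 0.14), had -0.01 with none passing.

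In chamber EdCs the medians of these lists were -0.17 for the chaperones inducible by HSF1, -0.20 for those of the endoplasmic reticulum, 0.16 for partners and clients, 0.32 for immediate early genes and 0.07 for stress factors, and none of their genes passed the threshold. The corresponding medians were -0.04, 0.00, 0.00, -0.34 and -0.01 in CMs, -0.03, 0.03, -0.02, -0.21 and -0.03 in MCs, and -0.12, -0.04, -0.06, 0.54 and 0.01 in epicardial cells, again with none passing. The red blood cell genes had medians of -1.45 (CMs) to -2.68 (chamber EdCs) in the 5 cell types, and 3 of the 6 passed, all in epicardial cells. The CM genes had medians of 0.04 in chamber EdCs, -0.34 in cushion EdCs, -0.07 in CMs, -0.50 in MCs and -0.34 in epicardial cells, with none passing.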

How the data were processed

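Gene counts from hearts of E10.5 mouse embryos were analysed in 4 libraries, 2 control and 2 *Tie2-cko*. The authors deposited UMI counts per gene and cell barcode, without normalization, aligned to mm10, and the matrix headers name Cell Ranger 6.1.2. The gene annotation and the use of strand in counting are not given in the sources used here. Every barcode carries counts from the 1 library named in its labels.

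Barcodes were kept from 500 genes and 1000 UMIs upwards if no more than 10% of their UMIs were mitochondrial. Presumed doublets (0.8% per 1000 barcodes, Scrublet in scanpy 1.11.5) were removed, 285 to 982 per library. Clusters (27, of which 3 with few UMIs stayed unnamed) were made in Seurat 5.3.0 from 2000 variable genes, without 81 genes compared here, using 30 components and 20 neighbours (resolution 0.8), and named from marker lists. For each cell type, the UMI sums of the libraries were tested with edgeR 4.0.16 (quasi-likelihood test, TMM, filterByExpr, Benjamini-Hochberg threshold 0.05) in R 4.3.3, checked on simulated data. Alternatives included DESeq2 1.42.0, other filters, clustering and libraries left out. Total UMIs were 169361996 to 259775540 per library. Intervals and limits from 0 cells (3 counts of the total) cover counting error only.

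Levels are means over cells, for clusters with at least 20 cells in a library. For shares and for classes by *Hspb1* UMIs, cells were thinned to 5500 UMIs in separate draws, leaving out shallower cells (2 to 21 cushion EdCs, 9 to 41 chamber EdCs, 1 to 11 epicardial cells and 10 to 48 red blood cells per library). The members and gene lists were chosen with earlier results of these data known. Named genes are the members, the rest of the family, *Tek*, up to 4 genes of each list by level or those that passed, and the 3 genes most similar to each member in level among those with at least 0.5 UMIs per 10000 in a cell type. Other genes are named as chosen after their values were seen, or lead the cells with at least 5 *Hspb1* UMIs.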

Additional observations from a re-analysis of the deposited data

Results flagged for a closer look

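*Hspb1* and *Cryab* had genotype differences of opposite sign in cell types where the libraries of both genotypes did not overlap. None of these differences between cell types was tested. Lack of overlap was common among all genes tested, at 20.1% in CMs as a whole, 27.6% in cushion EdCs and 34.1% in chamber EdCs. This share was not counted for the single clusters below. The pairs were picked by their values, and *Hspb1* was chosen for its difference in cushion EdCs, so they are given as a description only. The log2 ratio of *Hspb1* levels (*Tie2-cko* over control) was 0.54 in cushion EdCs, against -0.11 in sinus venosus and atrioventricular canal CMs (a difference of 0.65), -0.30 in the MC cluster of *Postn* and *Meox1* (0.84) and -0.50 in epithelial cells led by *Pax9* and *Sfn* (1.04). In the epithelial cells, with only 30 cells in library 6, the levels were 3.10 and 2.35 UMIs per 10000 in control and 1.58 and 2.27 in *Tie2-cko* libraries. For *Cryab*, the epithelial cells had a log2 ratio of 0.78, with 0.597 and 0.711 in control and 1.48 and 0.754 in *Tie2-cko* libraries, against -0.20 in *Ttn*-led ventricular CMs (a difference of 0.98) and -0.20 in trabecular CMs (0.98).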

How the results depend on the processing

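Signs under the alternatives were followed for the members only, none of which passed a test in the main fits. Members' values that passed under an alternative kept the sign of the main fit, while values that passed none changed sign in part. The fitted log2 difference of *Hspb1* in cushion EdCs (0.76) was 0.79 with at least 1500 genes and at most 5% mitochondrial UMIs, 0.83 with presumed doublets kept, 0.84 at resolution 1.2, 0.88 without the 25% of cells with most CM transcripts and 0.83 without cells above 4 times the median UMIs. Measured otherwise, the log2 ratio of mean levels over cells was 0.54, and that of mean UMIs of 5500 was -0.20 once cells holding at least 5 *Hspb1* UMIs, chosen by this gene itself, were left out. Genes that passed in chamber EdCs (1) were 28 by DESeq2, 192 without the low-count filter, 0 with the stricter cell filter, 901 with libraries 5 and 6 as a block against 7 and 8, and 11 to 159 leaving out a library. In cushion EdCs (0) they were 9 by DESeq2, 2 with DESeq2 size factors, 41 without the filter, 4 with the stricter cell filter, 1 with doublets kept, 2 without cells with most CM transcripts, 109 with the block and 10 to 53 leaving out a library. In CMs (0) they were 2 by DESeq2, 70 with the block and 0 to 3 leaving out a library. In MCs (0) they were 9 by DESeq2, 23 without the filter, 100 with the block and 0 to 12 leaving out a library. In epicardial cells (4) they were 7 by DESeq2, 0 without the filter, 1 with doublets kept, 64 with the block and 6 to 65 leaving out a library. Against CMs, the genotype effect differed in chamber EdCs for 360 genes without the filter and 94 to 507 leaving out a library (129), in MCs for 28 and 2 to 60 (1), and in epicardial cells for 24 and 3 to 88 (1). The level of *Hspb7* in chamber EdCs as percent of CMs (4.54) was 2.88 with the stricter cell filter and 2.93 without cells with most CM transcripts, and that of *Hspb8* became 5.92 and 6.09. The next count leaves out *Hspb1* in cushion EdCs, whose values are given above. Of the other fold changes of members, 335 of 339 stayed on their side of the threshold or, in cushion EdCs, near their value. Of the differences between cell types, 99 of 108 stayed on their side, and the other 9 newly passed, mostly in fits that left out a library. The cause of these changes was not tested. Where a library was left out, the lone library of its genotype was assumed to vary like the others. No paired analysis was possible because the libraries of both genotypes share no replicate number in the labels, which do not say which libraries came from 1 litter. The block sets together libraries that shared some non-cardiac cell types, and is no pairing given by the labels. With 2 libraries per genotype and few UMIs of *Hspb6* and *Hspb8* in EdCs, small differences were not detectable.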
